A study of Mus musculus with 6 samples.

Results

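Small nucleolar RNA (snoRNA) genes and the long noncoding genes that carry snoRNAs were compared between 3T3-L1 cells given chronic intermittent hypoxia (CIH) and control cells. Members were chosen by symbol and by FPKM above 0: the genes whose GENCODE M21 symbol starts with Snord (C/D box snoRNAs), Snora (H/ACA box snoRNAs) or Snhg (snoRNA host genes), together with Gas5, if at least 1 of CIH 1, CIH 2, control 1 and control 2 held a value above 0. Of the 54532 genes in these 4 tables, 157 met the name rule and 66 of them also held a value above 0. The 66 were 36 of 99 C/D box genes, 15 of 42 H/ACA box genes and 15 of 16 host genes. That choice used detection in any library, so the detection counts given further on are descriptions. The lowest members, Snord93, Snord59a, Snord23 and Snora5c, each rested on 1 sequenced fragment in a single CIH library, and the genes just outside the rule had 0 fragments in all 4 libraries.

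3T3-L1 is a mouse embryonic fibroblast line that turns into adipocytes under hormonal induction. All groups were wild-type cells of this 1 line, grown in 10% serum, induced with insulin and kept in 0.1 µM insulin until day 8; the CIH group in addition received repeated spells of low oxygen and the control group did not. RNA-seq was deposited as 3 CIH and 3 control libraries, of which replicates 1 and 2 of each group list the members and replicate 3 of each group lists none of them. Separate cultures are not named in the labels; a p-value here measures the spread among 4 libraries, and that spread may be technical. The sources used here give neither oxygen levels nor cycle times.

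snoRNAs guide chemical modification of other RNAs, chiefly ribosomal RNA (rRNA), in the nucleolus. C/D box snoRNAs pair with the target and position the methyltransferase fibrillarin (Fbl) for ribose methylation, whereas H/ACA box snoRNAs position the pseudouridine synthase dyskerin (Dkc1). Most vertebrate snoRNAs are trimmed out of spliced introns of a host gene, which may encode a ribosomal protein or a noncoding RNA such as Gas5, so the host exons and the snoRNA come from 1 precursor and then have separate fates.

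The sequences of the snoRNAs on which the results turn are shown to make plain how short these genes are and where the boxes that define each class lie. The C/D box set shows 3 of the genes with the most fragments and the 3 that share 1 host gene, Snord49a, Snord49b and Snord65. Capitals mark TGATGA (C box) where all of it lies within the first 25 bases and the last CTGA (D box) within the last 20. All were read from GENCODE M21 transcripts (GRCm38), 5′ to 3′. Snord104 lies at chr11:106500993-106501062 (+ strand), Snord49a at chr11:62603450-62603521 (+), Snord49b at chr11:62603079-62603150 (+), Snord65 at chr11:62604515-62604586 (+) and Snord72 at chr15:5118404-5118484 (+).
Snord104: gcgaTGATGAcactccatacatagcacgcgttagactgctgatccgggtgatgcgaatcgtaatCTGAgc
Snord49a: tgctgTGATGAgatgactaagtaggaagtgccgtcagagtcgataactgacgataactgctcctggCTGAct
Snord49b: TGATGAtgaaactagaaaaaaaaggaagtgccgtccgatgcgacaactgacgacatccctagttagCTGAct
Snord65: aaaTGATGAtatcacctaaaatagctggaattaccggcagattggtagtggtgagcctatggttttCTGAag
Snord72: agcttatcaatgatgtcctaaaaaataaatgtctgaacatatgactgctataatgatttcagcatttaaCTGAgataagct

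Snord49a and Snord49b share a run of 13 bases, aggaagtgccgtc, which is their longest common stretch. Of the 35 detected C/D box genes whose sequence was read, 21 held TGATGA in that window, 34 held CTGA and 20 held both, against 69.4% with both among all 98 C/D box sequences and 0 of 41 H/ACA box sequences. Snord72 is a case with CTGA alone, as TGATGA is not in its window.

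The H/ACA box set holds the 3 genes with enough fragments for a test. Capitals mark the ACA near the 3′ end, searched within the last 9 bases, and the hinge motif ANANNA where 1 single match lay between bases 51 and 96. Snora57 lies at chr19:8888538-8888685 (−), Snora17 at chr2:26639190-26639321 (−) and Snora31 at chr14:75847905-75848034 (+).
Snora57: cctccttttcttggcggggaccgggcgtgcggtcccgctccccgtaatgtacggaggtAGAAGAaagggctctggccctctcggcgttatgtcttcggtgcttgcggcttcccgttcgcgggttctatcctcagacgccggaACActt
Snora17: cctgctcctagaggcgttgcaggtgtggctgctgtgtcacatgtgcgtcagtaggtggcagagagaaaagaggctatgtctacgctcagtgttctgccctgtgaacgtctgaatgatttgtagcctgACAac
Snora31: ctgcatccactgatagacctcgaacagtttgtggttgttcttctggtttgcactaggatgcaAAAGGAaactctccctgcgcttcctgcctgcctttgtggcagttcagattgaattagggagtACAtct

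All 15 detected H/ACA box genes ended with ACA in that window, against 95.1% of the 41 H/ACA box sequences and 7.14% of the C/D box sequences. Detected C/D box genes were 64 to 238 bases long (median 83) and detected H/ACA box genes 128 to 184 bases (median 136).

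These lengths set the precision of every snoRNA value. The deposited unit was FPKM, the number of fragments for each kilobase of exon scaled to the size of the library, and multiplying the values by exon length gave back whole fragment numbers. The libraries held about 26200000 and 27400000 fragments in CIH 1 and CIH 2, against 25700000 and 28000000 in control 1 and control 2. At this depth 1 fragment was worth about 0.533 FPKM in a gene of 70 bases, 0.287 FPKM in a gene of 130 bases and 0.0124 FPKM in a gene of 3000 bases. The same FPKM therefore rests on many more fragments in a host gene than in a snoRNA. Library fragments that fall on a snoRNA gene can come from the mature snoRNA, from its trimming intermediates or from the unspliced host, and these cannot be told apart here.

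Each class held more normalised fragments, meaning fragments per 1000000 in the library, in both CIH libraries than in both controls. The C/D box genes together held 9.90 and 9.84 normalised fragments in CIH 1 and CIH 2, against 4.04 and 5.47 in control 1 and control 2. The H/ACA box genes held 4.86 and 4.52 normalised fragments in CIH, against 2.53 and 2.86 in control. Host genes held 191 and 181 normalised fragments in CIH, against 112 and 139 in control. Neither class of snoRNA overlapped between the groups in this sum, nor did the hosts. The snoRNA sums stood on 259 and 270 C/D box fragments in CIH, against 104 and 153 in control, and on 127 and 124 H/ACA box fragments in CIH, against 65 and 80 in control. In bulk RNA, fewer cells with a transcript and less of it per cell cannot be told apart.

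Per gene, FPKM in both CIH libraries lay above both controls in 17 of 36 C/D box genes and 6 of 15 H/ACA box genes. The same held for 10 of 15 host genes. Both CIH libraries lay below in 0, 1 and 1 of the C/D box, H/ACA box and host genes. Some of these separations hold only through the scaling to library size. Snord7, for example, had 5 fragments in CIH 1 and 5 in control 2. Among all 24416 genes with a value above 0, both CIH libraries lay above both controls in 26.7% and below in 25.5%. Among genes with a mean under 10 fragments, where 44 of the 51 snoRNAs fall, the background was 15.5% above and 10.7% below. Of those 44 snoRNAs, 40.9% had both CIH libraries above and 2.27% had both below. More snoRNAs had a value above 0 in CIH, 43 and 45, than in control, 32 and 34, while the number of all genes above 0 was 20150 and 20667 in CIH, against 19589 and 19997 in control.

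Other measures of the libraries moved with the group as well. The summed level of 4 markers of proliferating cells (Mki67, Top2a, Ccnb1 and Mcm5, all above 0) was 27.2 and 28.7 FPKM in CIH, against 7.15 and 7.04 FPKM in control. The 12 adipocyte markers summed to 8183 and 7265 FPKM in CIH, against 8593 and 8996 FPKM in control, with leptin (Lep) below 0.1 FPKM throughout. The 7 fibroblast and preadipocyte markers summed to 194 and 204 FPKM in CIH, against 134 and 151 FPKM in control, with Cd34 below 0.1 FPKM in all. The 5 leukocyte and 3 endothelial markers stayed near 0, summing to at most 1.73 and 0.295 FPKM in any library, with Ptprc, Cd3e, Adgre1, Cdh5 and Kdr below 0.1 FPKM. Mitochondrial genes took 15.5% and 16.3% of all FPKM in CIH, against 14.2% and 11.2% in control. The part of these differences in the snoRNA and host values was not tested.

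Tests used limma on log2(FPKM + 1) over the 10870 genes that averaged 1 FPKM or more and 10 fragments or more, with Benjamini-Hochberg adjustment over all of them and a call at an adjusted p under 0.05. On this scale the change of a gene with a low level comes out too small. Of the members, 11 host genes, 4 C/D box and 3 H/ACA box genes passed this limit. Snora31, with a mean of 11.8 fragments, lay just inside and Snord91a, with 9.50, just outside. Of the genes tested, limma called 47.2% in either direction, 22.4% higher and 24.8% lower in CIH, with a median log2 change of −0.01. With that many genes called, a call alone sets no member apart. Scaling the libraries to equal total FPKM turned 2439 higher and 2692 lower calls into 1676 higher and 3713 lower, with a median of −0.12, and under it limma still called 6 hosts, 5 of them higher, and 2 C/D box genes, beside 15.4% higher and 34.2% lower of all genes.

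Among the 11 tested host genes, limma called 6 higher and 1 lower in CIH and left 4 without a call, beside the 22.4% higher and 24.8% lower of all genes. Snhg15, Snhg1, Snhg8, Gas5, Snhg17 and Snhg20 rose and Snhg18 fell, with changes between −0.32 and 1.24 on the log2 scale. These counts cover only the hosts with enough signal to be tested.

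Snhg15, a short-lived noncoding RNA whose gene holds the H/ACA box snoRNA Snora9, had the largest host change. Its level was 9.0 and 8.61 FPKM in CIH 1 and CIH 2, against 2.43 and 4.05 FPKM in control 1 and control 2. Both CIH libraries stood clear of both controls, and the controls differed more from each other than the CIH libraries did. Its log2 change was 1.24 ± 0.16 (SE), with an adjusted p of 4.68e-05 by limma.

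Snhg1, the host of a cluster of C/D box snoRNAs that includes Snord22, had 11.3 and 9.70 FPKM in CIH, against 5.75 and 5.22 FPKM in control. The groups did not overlap, and the gap was wider than the spread within either. Its log2 change was 0.82 ± 0.10 (SE), with an adjusted p of 3.83e-05 by limma.

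Gas5, first described as a transcript that accumulates in growth-arrested cells and that is degraded by nonsense-mediated decay, averaged 10.1 ± 0.28 FPKM in CIH and 5.83 ± 0.57 FPKM in control (SD, n = 2 each). Single libraries had 9.91 and 10.3 FPKM in CIH, against 5.43 and 6.23 FPKM in control. All 4 genes of the name rule that lie within Gas5, Snord47, Snord78 and both entries called Snord80, were listed at 0 in all 4 libraries. The log2 change of Gas5 was 0.70 ± 0.10 (SE), with an adjusted p of 8.59e-05 by limma.

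Snhg8, the host of Snora24, had the highest mean FPKM over the 4 libraries among the member hosts, with 15.3 and 13.6 FPKM in CIH, against 6.38 and 11.1 FPKM in control. The groups did not overlap, but control 2 lay nearer to the CIH libraries than to control 1. Its log2 change was 0.71 ± 0.18 (SE), with an adjusted p of 0.00605 by limma, and it was 0.36 without control 1 and 1.07 without control 2, called in both.

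Snhg17 had 2.94 and 2.71 FPKM in CIH, against 1.55 and 2.22 FPKM in control, and an adjusted p of 0.0115 by limma. Snhg20 had 5.88 and 5.25 FPKM in CIH, against 3.16 and 4.83 FPKM in control, and an adjusted p of 0.0290 by limma. Neither overlapped between the groups, and in both control 1 was the lowest library. Without control 1 the log2 change fell to 0.25 for Snhg17 (adjusted p 0.0953 by limma) and 0.17 for Snhg20 (adjusted p 0.293), against 0.42 and 0.41 with it. Without CIH 1, the adjusted p was 0.0586 for Snhg17 and 0.118 for Snhg20 by limma, and both calls were lost too.

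Snhg18, the host of Snord123, was the only host called lower. It had 7.18 and 6.5 FPKM in CIH, against 7.95 and 9.69 FPKM in control, so the groups did not overlap but CIH 1 lay close to control 1. Its log2 change was −0.32 ± 0.12 (SE), with an adjusted p of 0.0373 by limma, and the call was lost without control 2 (0.225), without CIH 1 (0.0578) or without CIH 2 (0.191).

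The 4 tested hosts without a call were Snhg10, Snhg12, Snhg6 and Snhg5. Snhg10 had 2.17 and 1.65 FPKM in CIH, against 1.10 and 1.08 FPKM in control, and rested on 30 and 24 fragments in CIH against 15 and 16 in control (adjusted p 0.15 by limma). Snhg12 had 4.62 and 4.83 FPKM in CIH, against 3.46 and 4.28 FPKM in control, again without overlap (adjusted p 0.109). Snhg6 had 11 and 9.13 FPKM in CIH, against 7.39 and 10.0 FPKM in control, and Snhg5 had 7.25 and 6.07 FPKM in CIH, against 5.39 and 6.63 FPKM in control. In Snhg6 and Snhg5 the groups overlapped, since control 2 lay above CIH 2. The log2 change of Snhg12, 0.24, moved to 0.11 without control 1 (adjusted p 0.520 by limma) and 0.36 without control 2 (0.0191, a call). That of Snhg6, 0.20, moved to −0.0013 without control 1 (adjusted p 0.995 by limma) and 0.39 without control 2 (0.00876, a call).

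**Figure D1:**
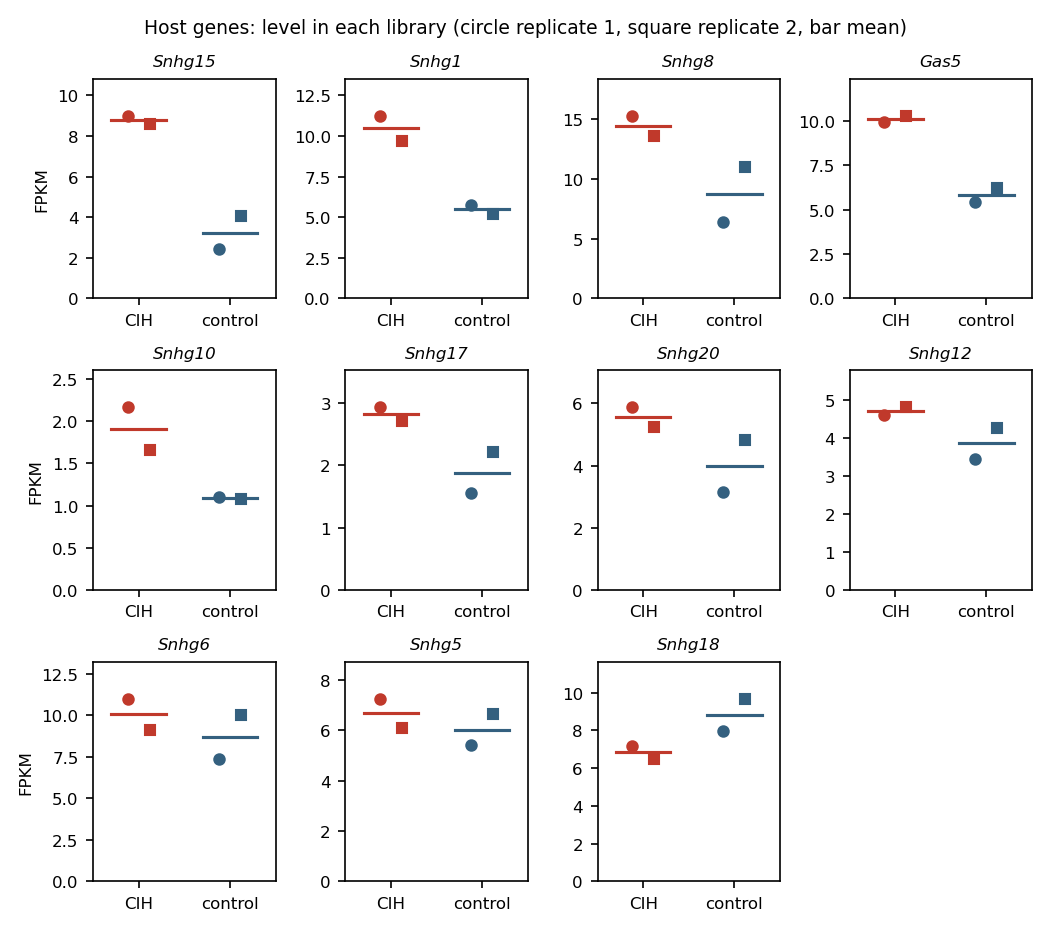
FPKM (vertical axis, from 0) of the 11 tested host genes in CIH (red) and control (blue); circles are replicate 1, squares replicate 2 and bars the mean of 2 libraries. Snhg15, Snhg1 and Gas5 show both CIH libraries well above both controls, Snhg18 shows them below, and Snhg6 and Snhg5 overlap.

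The other 4 detected hosts were not tested. Snhg14, a very long transcript that carries the Snord116 cluster and runs antisense to Ube3a, was below the limit of 1 FPKM, at 0.366 and 0.497 FPKM in CIH against 0.292 and 0.282 FPKM in control. This rested on 250 and 356 fragments in CIH, against 196 and 206 in control, without overlap. With no limit on level its adjusted p was 0.289 by limma. Snhg3 had 9 and 5 fragments in CIH, against 2 and 4 in control. It shares exons with Rcc1 on the same strand, so its value is uncertain. Snhg7os had 4 and 0 fragments in CIH, against 3 and 3 in control, and Snhg9 had 1 and 1 fragments in CIH, against 0 and 2 in control. Exons of Snhg6, Snhg9 and Snhg14 overlap exons on the opposite strand of Mcmdc2, Rps2 and Ube3a in the annotation, and the sources used here do not say whether counting used strand.

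Among the 4 tested C/D box genes, limma called Snord104 and Snord49a higher in CIH and called none lower. Over all genes tested it called 22.4% higher and 24.8% lower. Snord104, a methylation guide for large-subunit rRNA in human, was the member snoRNA with the most fragments. It had 27.9 and 27.6 FPKM in CIH 1 and CIH 2, against 11.1 and 14.3 FPKM in control 1 and control 2. These values rested on 51 and 53 fragments in CIH, against 20 and 28 in control, and the groups did not overlap. The log2 change was 1.08 ± 0.21 (SE), with an adjusted p of 0.00115 by limma. The annotation gives Snord104 no host gene on its strand.

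Snord49a had 9.03 and 16.7 FPKM in CIH, against 2.70 and 7.94 FPKM in control, from 17 and 33 fragments in CIH against 5 and 16 in control. CIH 1 was only just above control 2, so the groups were separated by 1 fragment. The log2 change was 1.21 ± 0.41 (SE), with an adjusted p of 0.0267 by limma. The call was lost without control 1 (log2 change 0.58, adjusted p 0.180) and without CIH 2 (0.80, adjusted p 0.170).

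Snord72, which lies in the ribosomal protein gene Rpl37, had 29 and 40 fragments in CIH, against 19 and 30 in control, and an adjusted p of 0.138 by limma. CIH 1 lay below control 2 in fragments but just above it in FPKM, at 13.7 and 18 FPKM in CIH against 9.12 and 13.2 FPKM in control. Its log2 change of 0.48 moved to 0.23 without control 1 (adjusted p 0.539 by limma), 0.29 without CIH 2 (0.516) and 0.72 without control 2 (0.0251, a call). Snord55 had 25 and 21 fragments in CIH, against 20 and 23 in control. Its groups overlapped, and its log2 change was 0.09 ± 0.25 (SE), with an adjusted p of 0.795 by limma.

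**Figure D2:**
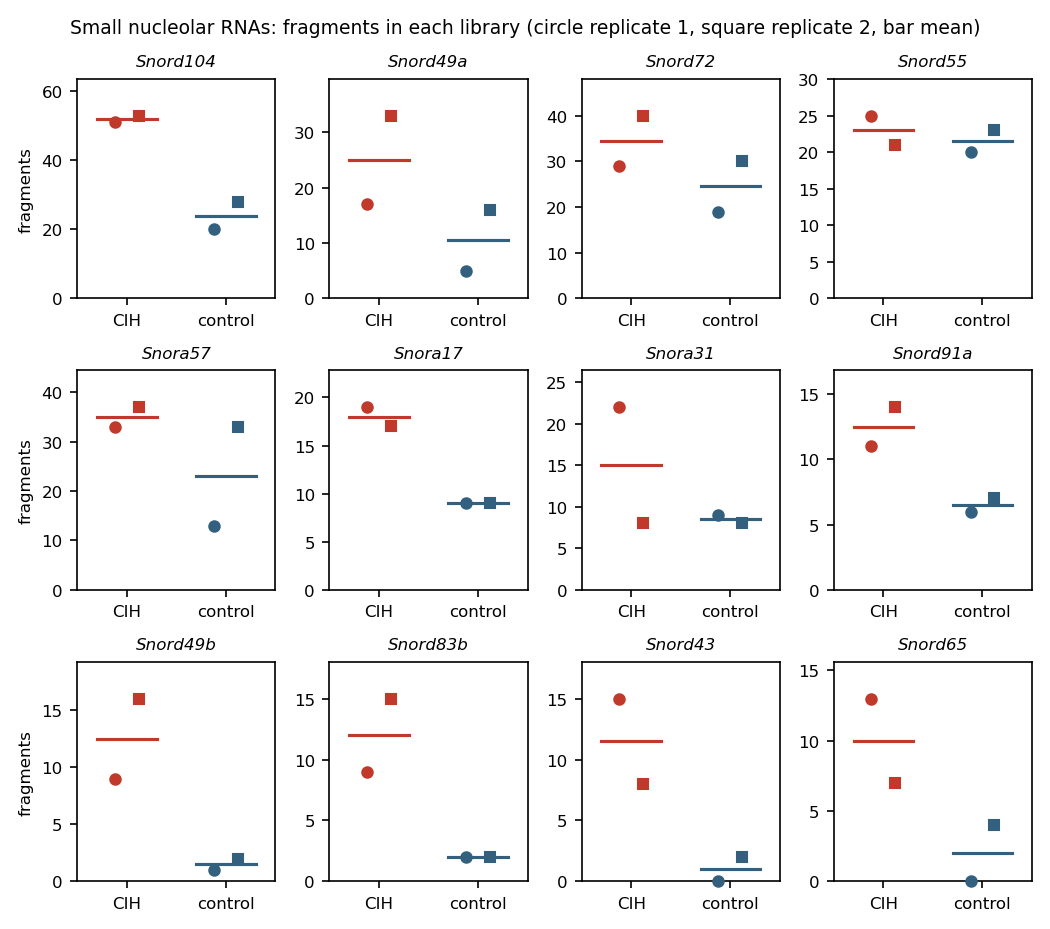
Fragments (vertical axis, from 0) for the 7 tested snoRNAs and 5 of the 7 untested C/D box genes with a CIH library of at least 10 fragments (Snord7 and Snord71 are not drawn); CIH is red, control is blue, circles are replicate 1, squares replicate 2 and bars the mean of 2 libraries. Snord104 has 51 and 53 fragments in CIH and 20 and 28 in control, whereas Snord55 overlaps.

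No H/ACA box gene was called by limma; of the 3 tested, 1 had an unadjusted p under 0.05, and voom on the recovered fragments, which called 48.2% of all genes, also called 0. Snora17, a pseudouridylation guide for large-subunit rRNA in human, had 19 and 17 fragments in CIH, against 9 and 9 in control. Its level was 5.50 and 4.69 FPKM in CIH against 2.65 and 2.44 FPKM in control, without overlap, and its log2 change was 0.78 ± 0.31 (SE). The adjusted p of Snora17 was 0.0512 by limma, just outside the threshold. Snora57 had 33 and 37 fragments in CIH, against 13 and 33 in control, or 8.52 and 9.11 FPKM in CIH against 3.41 and 7.97 FPKM in control. Control 2 lay close to the CIH libraries and control 1 stood apart (adjusted p 0.0979 by limma). Its log2 change of 0.64 moved to 0.13 without control 1 (adjusted p 0.747 by limma) and to 1.15 without control 2 (adjusted p 0.000230, a call). Snora31, in the intron of Tpt1, had 22 and 8 fragments in CIH, against 9 and 8 in control, and its log2 change of 0.52 became −0.08 without CIH 1. Snora41, in Eef1b2, was the 1 H/ACA box gene with both CIH libraries below both controls in FPKM. Its level was 2.61 and 1.93 FPKM in CIH, against 2.65 and 2.98 FPKM in control. In fragments CIH 1 equalled control 1, at 9 and 7 in CIH against 9 and 11 in control.

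Below the limit on fragments, 4 C/D box genes are described first, since they were called when that limit was dropped. Snord49b had 9 and 16 fragments in CIH, against 1 and 2 in control. Snord83b had 9 and 15 fragments in CIH, against 2 and 2 in control. Snord43, whose entry carries the biotype microRNA, had 15 and 8 fragments in CIH, against 0 and 2 in control. Snord65 had 13 and 7 fragments in CIH, against 0 and 4 in control. In each, the lower CIH library lay above the higher control. With the limit of 10 fragments dropped and that of 1 FPKM kept, limma called 6 of 18 C/D box genes higher, beside 22.3% of all genes. With both limits it called 2 of 4, and the added calls were these 4 genes. With no limit at all, Snord43 (adjusted p 0.0712 by limma) and Snord65 (0.193) were not called, while Snord37 (0.0236) and Snord91a (0.0369) were. Genes that pass on FPKM alone can do so through the CIH libraries in which they are high, so these calls are given as an account of the members only.

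Most of the remaining snoRNAs were counted a few times. Snord91a, in Tsr1, had 11 and 14 fragments in CIH, against 6 and 7 in control. Snord71 had 10 and 2 fragments in CIH against 1 and 1 in control, Snora2b had 3 and 14 in CIH against 6 and 1 in control, Snora20 had 12 and 2 in CIH against 0 and 1 in control, and Snord7 had 5 and 11 in CIH against 3 and 5 in control. In Snord71, Snora2b and Snora20 a single CIH library held most of the fragments. Of the members, 9 C/D box genes and 1 H/ACA box gene were above 0 in CIH alone and 0 were above 0 in control alone. Of all genes above 0, 11.2% were above 0 in CIH alone and 7.53% in control alone. Among those with a mean under 10 fragments, which all 10 of these snoRNAs have, the shares were 26.2% and 17.6%, so that 10 of 44 in CIH alone is near the background. The 9 C/D box genes included Snord118, the U8 RNA needed for large-subunit rRNA processing, with 1 and 2 fragments in CIH, and Snord13, with 2 and 0. None of the 10 held more than 8 fragments in the CIH libraries together, and Snord37 held that number.

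**Figure D3:**
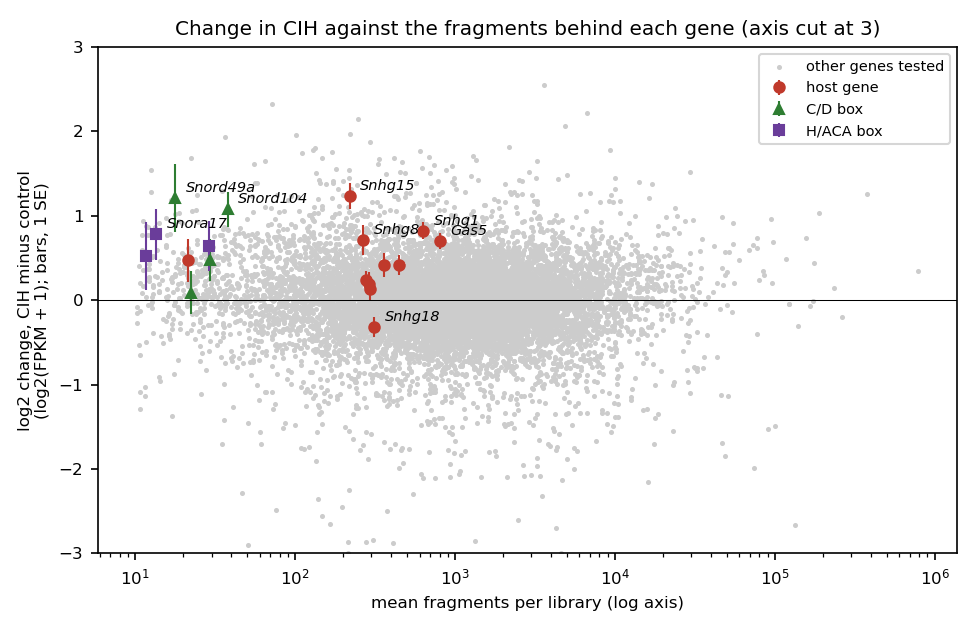
Log2 change of CIH minus control on the log2(FPKM + 1) scale (vertical axis, limited to ±3) against mean fragments per library (log axis) for all tested genes (grey), host genes (red circles), C/D box (green triangles) and H/ACA box snoRNAs (purple squares); bars are 1 SE. The 7 snoRNAs lie at the low end of fragments, where SEs are wider, and 17 of the 18 members lie above 0, Snhg18 being the exception.

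Whether a snoRNA was detected went with its position in the annotation. Of the 51 detected snoRNA genes, 7.84% overlapped an exon of another gene on the same strand, against 72.2% of the 90 that were at 0 in all 4 libraries. For C/D box genes the shares were 1 of 36 detected and 40 of 63 at 0, and for H/ACA box genes 3 of 15 detected and 25 of 27 at 0. Every snoRNA that the name rule places in Gas5, Snhg1, Snhg12, Snhg15, Snhg5 or Snhg8 lay in an annotated exon of its host and was at 0. By contrast Snord87 in Snhg6, Snord123 in Snhg18 and Snora78 in Snhg9 lay in introns and were above 0. Exons here are joined over all annotated transcripts of a gene. In Snhg1, Snhg8 and Snhg12 they cover the whole gene, and in Gas5 most of it. An exon in this sense can thus be an intron of another transcript of the host. Host values can therefore include fragments of unspliced RNA or of the snoRNA itself, which cannot be told apart from the spliced host here. Of the 25 snoRNAs at 0 that overlapped no exon on their own strand, 17 were the Snord116 copies of Snhg14. The sources used here do not say how fragments on overlapping genes were assigned, so a value of 0 for these genes is not read as absence of the RNA. The change of a snoRNA could therefore not be set beside that of its host for Gas5, Snhg1, Snhg8 or Snhg15.

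**Figure D4:**
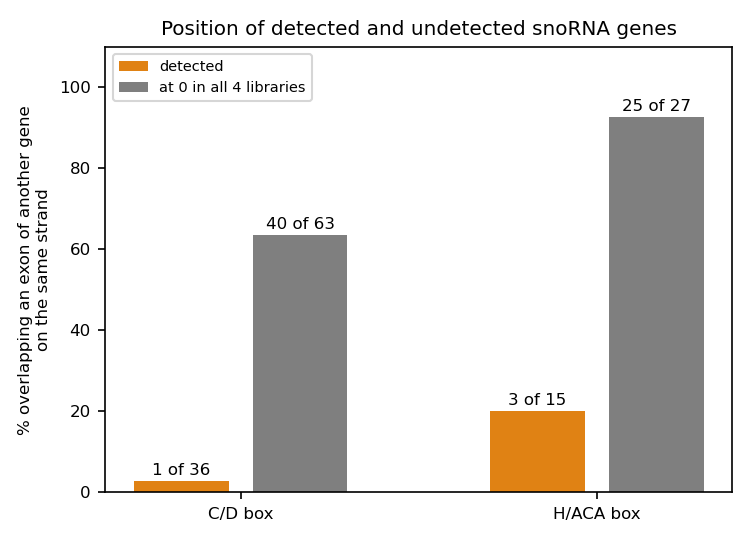
Percent of snoRNA genes that overlap an exon of another gene on the same strand (vertical axis, from 0), for genes detected in at least 1 library (orange) and genes at 0 in all 4 (grey), by class; labels give the counts. The share was 1 of 36 for detected and 40 of 63 for undetected C/D box genes, and 3 of 15 and 25 of 27 for H/ACA box genes.

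The comparison was possible for snoRNAs held by other genes. Snord49a, Snord49b and Snord65 lie in introns of the noncoding gene 2410006H16Rik, which had 109 and 93.8 FPKM in CIH, against 69.3 and 114 FPKM in control. The host overlapped between the groups, with a log2 change of 0.18 and an adjusted p of 0.411 by limma. Its 3 snoRNAs together are not independent observations, since they share this precursor. Snord43 and Snord83b lie in introns of the ribosomal protein gene Rpl3, which had 146 and 128 FPKM in CIH, against 145 and 147 FPKM in control (adjusted p 0.453 by limma). The test of a difference between a snoRNA and its host was not made.

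Over the 26 snoRNAs with at least 10 fragments in all and a tested host (22 hosts), the normalised fragments were higher in CIH for 24, and the host change was above 0 for 20. A snoRNA can reach 10 fragments through the CIH libraries alone, so these counts are an account of the pairs only. Pearson's r between both was −0.19 and Spearman's rho −0.33, over points that share the 4 libraries and in part a host, and no relation is read from it. Of the 34 distinct tested hosts outside the members, limma called 18 higher and 3 lower, beside 22.4% higher and 24.8% lower of all genes, with a median log2 change of 0.28 against −0.01 over all genes. Among the 11 ribosomal protein genes in that group it called 6 higher and 0 lower. A host entered this group through a detected snoRNA, in some cases one above 0 in CIH alone. These host counts are therefore an account of the hosts only. The 3 lower hosts were Ipo7, Nop53 and Eef2. Eef2 holds Snord37 and had 759 and 725 FPKM in CIH, against 951 and 1007 FPKM in control (adjusted p 0.00518 by limma), while Snord37 itself had 3 and 5 fragments in CIH and 0 and 0 in control.

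**Figure D5:**
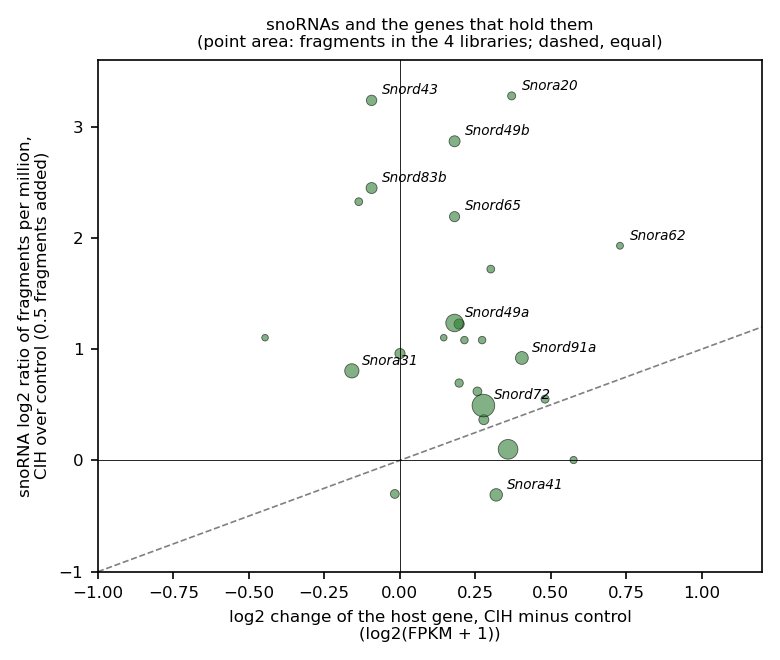
Log2 ratio of normalised snoRNA fragments, CIH over control with 0.5 fragments added (vertical axis), against the log2 change of the host gene on the log2(FPKM + 1) scale (horizontal axis) for 26 snoRNAs; point area follows the fragments in all 4 libraries and the dashed line marks equal change. The points furthest above the line rest on few control fragments, at most 3 for Snord43, Snord49b and Snora20.

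The genes for proteins that join snoRNAs into particles had higher RNA levels in CIH in replicates 1 and 2. All 4 C/D box core protein genes were called higher by limma, beside 22.4% higher and 24.8% lower of all genes. Their median log2 change was 0.74, against −0.01 over all genes tested. The methyltransferase Fbl had 17.8 and 17.0 FPKM in CIH, against 9.11 and 10.9 FPKM in control (log2 change 0.75), Nop56 changed by 0.93, Nop58 by 0.73 and Snu13, which binds the box motif, by 0.38. All 4 H/ACA box core protein genes were also called higher, with a median of 0.74, against the same background. The pseudouridine synthase Dkc1 had 18 and 17.8 FPKM in CIH, against 12.1 and 9.22 FPKM in control (log2 change 0.71), and Nhp2, Nop10 and Gar1 changed by 1.26, 0.78 and 0.58. Nop56 and Nop58 are themselves hosts, of Snord110 and of Snord11 and Snord70.

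Of 14 tested assembly and maturation factors, 5 were called higher, 0 lower and 9 were not called, with a median log2 change of 0.15, beside 22.4% higher and 24.8% lower of all genes. The 5 were Znhit6, Ncl, Nolc1 and the ATPases Ruvbl1 and Ruvbl2, with changes between 0.29 and 0.70. Of 42 genes for rRNA synthesis and processing, 30 were called higher, 1 lower and 11 were not called, with a median of 0.45, against the same background. The largest changes were in Rrp9 (1.07), which binds the U3 snoRNA, Polr1a (0.98), the largest subunit of RNA polymerase I, and Nob1 (0.91), the nuclease that forms the end of small-subunit rRNA. Polr1a had 23.8 and 24.4 FPKM in CIH, against 12.0 and 11.4 FPKM in control, and the 1 gene called lower was the polymerase I factor Taf1b (−0.44).

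Of 25 genes of the RNA exosome and nonsense-mediated decay, the pathways that trim snoRNA ends and degrade spliced host transcripts such as Gas5, 10 were called higher, 4 lower and 11 were not called (median 0.14), beside 22.4% higher and 24.8% lower of all genes. Exosc2 and the nuclease Dis3 were higher, by 0.68 and 0.57 on the log2 scale. The kinase Smg1 had 6.91 and 8.56 FPKM in CIH, against 11.6 and 10.7 FPKM in control, and was called lower with a log2 change of −0.48. The endonuclease Smg6, the exonuclease Xrn1 and Rbm7 were called lower as well, at −0.43, −0.37 and −0.28. Without CIH 1, limma called 5 of the 25 higher and 2 lower, beside 14.3% higher and 18% lower of all genes.

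These protein-coding lists were also listed in the replicate 3 pair, which has 1 library per group and therefore no test. CIH 3 was higher than control 3 for 4 of 4 C/D box core genes, 2 of 4 H/ACA box core genes, 12 of 14 assembly factors, 24 of 42 rRNA genes and 15 of 25 exosome and decay genes, against 5823 of 9842 genes overall. Nhp2 had 20.6 FPKM in CIH 3 and 37.1 FPKM in control 3, and Nop10 had 19.0 FPKM in CIH 3 and 42.7 FPKM in control 3, the reverse of replicates 1 and 2. A limma fit of all 6 libraries that allowed for a shift between gene and transcript tables left 0 calls in each of the 5 lists, beside 0.254% higher and 0.589% lower of all genes, with medians of 0.66, 0.48, 0.34, 0.35 and 0.11 in the order given above.

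Among genes outside the members, those whose centred log2 levels lay closest to Gas5 over the 4 libraries were Gtf3c6, Nop2, Cdca5, Gm17300, Il1rl2, Ppp1r10, Hnrnpa1 and Rpl29, at root mean squared differences of 0.0175 to 0.0353. Gtf3c6, the closest, had 10.3 and 10.8 FPKM in CIH, against 5.86 and 6.62 FPKM in control. With 4 libraries many genes can come this close, and the likeness is a description.

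The promoter of Snhg15, the host with the largest change, is shown because it holds the E-box letters. It was read from RefSeq (GRCm38.p6) as 250 bases before to 50 after the annotated start, at chr11:6528711-6529010 (− strand), with CACGTG in capitals. These letters begin 11 bases after the annotated start, so they lie in the transcribed part of the window.
Snhg15 promoter: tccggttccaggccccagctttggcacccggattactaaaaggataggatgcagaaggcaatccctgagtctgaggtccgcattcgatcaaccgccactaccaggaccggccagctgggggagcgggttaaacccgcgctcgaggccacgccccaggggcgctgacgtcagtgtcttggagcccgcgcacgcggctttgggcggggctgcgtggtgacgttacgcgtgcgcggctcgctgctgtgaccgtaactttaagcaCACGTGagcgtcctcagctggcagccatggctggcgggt

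CACGTG, the letters that Myc and related factors can bind, was found in 7.15% of all 32851 promoter windows and in 2 of 18 windows of 14 host genes (11.1%), those of Snhg15 and Snhg9. ACGTG, the core of hypoxia response elements, was searched on both strands. It was found in 19.6% of all windows and in 6 of the 18 host windows (33.3%), and it lies within CACGTG wherever that occurs. The 6 were windows of Snhg1, Snhg5, Snhg9, Snhg10, Snhg15 and Snhg7os. Of the hosts called higher, Snhg1 and Snhg15 held it and Gas5, Snhg8, Snhg17 and Snhg20 did not. Some windows of Snhg17 and of Snhg7os overlap almost fully, so the 18 are not independent. A match describes letters in a window and is not evidence of binding.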

How the data were processed

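RNA-seq libraries of 3 CIH and 3 control samples of 3T3-L1 cells were used; directional libraries came from 1.3 µg of total RNA, per the labels' protocols. The values deposited by the authors were FPKM, a unit read from the values since the file headers name samples only. The submitters' processing notes list GRCm38, featureCounts 1.5.0-p3 and DESeq 1.8.3 without their roles; the sources used here name no aligner, strand setting or treatment of overlapping genes. Of the tables, replicates 1 and 2 came as gene tables of 54532 genes and replicate 3 as transcript tables of 21950 gene IDs, which hold none of the 66 members and were processed by other steps.

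Symbols, exon lengths, hosts and sequences came from GENCODE M21. FPKM times exon length came within 0.05 of a whole fragment for 98.4% to 98.6% of genes with fewer than 50 fragments and for all 212 member values above 0, which gave the depth of about 25700000 to 28000000 fragments. A total of 37 rows with no entry in the annotation were left out. A host was the gene on the same strand whose span holds the snoRNA. Of the 15 detected host genes, 14 had a promoter window in RefSeq.

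CIH was compared with control in the 4 gene tables with limma 3.58.1 (R 4.3.3) on log2(FPKM + 1), group only, with empirical Bayes and the prior variance trended on mean log2 fragments. This trend was used since short genes rest on few fragments for a given FPKM. Genes that averaged 1 FPKM or more and 10 fragments or more were tested and called at a Benjamini-Hochberg adjusted p under 0.05. The fit had 2 residual and 10.5 prior degrees of freedom, and the procedure was also run on simulated data. That simulation gave all genes the same spread and changed few of them. It therefore does not give the error rate on these data. Python 3.11.15 made the other tables and the plots. Alternatives changed the pseudocount, filter, scaling, prior trend, scale of values, libraries and replicate block. Named genes were all tested members, untested members with at least 10 fragments in some library, and called genes of the protein lists; Snord118, Snord13, Snord37, Snora41, Snord7, Snord87, Snord123, Snora78 and the hosts with few fragments were added after their values were seen. The members and lists were chosen with earlier results of these data known. A few items, among them a sequence and a host gene, are not reported here.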

Additional observations from a re-analysis of the deposited data

How the results depend on the processing

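Of 298 recomputed values of single members, 259 kept their direction and their side of the threshold, 23 lost a call, 12 gained one and 4 turned their sign. Those that turned were Snord55 under equal total FPKM (log2 change −0.029) and when 1 library was left out (−0.0566 to 0.24), Snora31 with 1 library left out (−0.0833 to 1.12) and Snhg6 with 1 library left out (−0.0013 to 0.39); Snord55 and Snora31 turned without CIH 1 and Snhg6 without control 1. Snhg1 and Gas5 stayed called under every alternative run on the gene tables, Snord104 under every one that tested it (a minimum of 50 fragments did not), and Snhg15 and Snhg8 under all but the fit with no filter (adjusted p 0.0521 and 0.210 by limma). Besides the libraries left out, Snhg18 was lost at a pseudocount of 0.1 (0.0559), with voom (0.0591), with no filter (0.193), with no prior trend (0.0528) and on log2 normalised fragments (0.0615). Snhg20 was lost with no filter (0.292), under equal total FPKM (0.0682), with the prior trend on FPKM (0.0586) and with no trend (0.0633), and Snhg17 with no filter (0.161). Snhg10 gained a call with the trend on FPKM (0.0147) and with no trend (0.0109).

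The number of genes called, 5131, was 2740 with no filter, 83 over all 6 libraries that allowed for a shift between gene and transcript tables and 0 over all 6 with the group alone (525 at an unadjusted p under 0.05), and 3507 to 5108 when 1 library was left out. Hosts called, 7, were 2 with no filter and 4 to 8 with 1 library left out. C/D box genes called, 2, were 5 with no filter, 6 with no minimum of fragments, 1 on log2 normalised fragments and 1 to 3 with 1 library left out. H/ACA box genes called, 0, were 1 with no filter, with the prior trend on FPKM, with no trend, with scaling by the median of ratios or the upper quartile, and with the replicate block, and 0 to 1 with 1 library left out. A minimum of 50 fragments left no snoRNA to test. The number of genes tested changed with the filter, so these counts do not share 1 base. With no filter limma called 2 of 15 hosts, 5 of 36 C/D box and 1 of 15 H/ACA box genes, beside 2740 of all 24406. With no minimum of fragments it called 6 of 18 C/D box genes, beside 5141 of all 10977. The main fit called 7 of 11 hosts, 2 of 4 C/D box and 0 of 3 H/ACA box genes, beside 5131 of all 10870. With no filter, calls in the protein lists were 3 of 4 for the C/D box core, 2 of 4 for the H/ACA box core, 3 in place of 5 for assembly, 23 in place of 31 for rRNA and 7 in place of 14 for exosome and decay. The 6-library fits hold no member. Their effect on the members was not tested.

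The groups share replicate numbers, but same-numbered libraries deviated against each other (correlation −0.13 over 10870 genes), so the numbers were not taken as pairs. With the replicate block, limma called 4916 genes, 7 hosts, 2 C/D box genes and 1 H/ACA box gene. With crossed pairing, chosen after seeing the data, it called 5659 genes, 7 hosts, 2 C/D box genes and 0 H/ACA box genes. The number of fragments limits what could be called among the snoRNAs. Of the 51, 44 had a mean under 10 fragments, where a single fragment moves the value and only large differences could be called. Why so few fragments fell on them was not tested.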

Other observations

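Genes annotated with the biotype snoRNA but named outside the rule were far more often at 0 than the named ones: 142 of 1367 held a value above 0, and 5 passed the limits for a test. Of 51 annotated small Cajal body RNAs (scaRNAs), which guide modification of spliceosomal RNAs, 16 held a value above 0 and 0 passed. Among other long noncoding biotypes, limma called 17 higher and 22 lower of 111 tested lincRNAs. It called 13 higher and 4 lower of 56 processed transcripts, and 18 higher and 15 lower of 103 antisense genes. The shares called higher were 15.3%, 23.2% and 17.5% in this order, beside 22.4% higher and 24.8% lower of all genes tested. These counts leave out the member hosts.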
